A study of Mus musculus with 6 samples.

Results

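The genes of prostaglandin and thromboxane synthesis were examined in TM4, an established mouse cell line derived from Sertoli cells, which the labels describe as a male testicular somatic line. They are 10 genes: Pla2g4a, Ptgs1, Ptgs2, Ptges, Ptges2, Ptges3, Ptgis, Tbxas1, Ptgr1 and Hpgd. All probes whose transcript accession belongs to one of these symbols were taken, which gave 13 of the 56605 non-control probes on the array. Total RNA was measured after 24 h in 3 samples exposed to 10 µM 4-nitrophenol (PNP), a breakdown product of organophosphate insecticides, and in 3 untreated samples at 0 µM, for which the labels name no vehicle. Each sample was labelled with Cy3 and hybridised to 1 single-colour Agilent array. The genes were chosen by a pattern seen in these same arrays, so their values are given as a description, without tests of their own.

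Prostanoids are made from arachidonic acid, which cytosolic phospholipase A2 frees from membrane lipids. A cyclooxygenase turns it into prostaglandin H2, and terminal synthases turn that into prostaglandin E2, prostacyclin or thromboxane A2. Reductases and dehydrogenases then inactivate the products. Cyclooxygenase 2 is an inducible enzyme whose transcript is short-lived, while cyclooxygenase 1 is made more steadily in many tissues.

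Of these genes, Tbxas1 and Ptgs2 varied most between arrays, and their values followed the place of the array on its slide, while PNP and untreated arrays overlapped. Both were dimmer on the 3 arrays at position 2 than on the 3 at position 1, in PNP and untreated samples alike. Pla2g4a and 1 of the 3 Ptges probes were higher on every PNP array than on every untreated array, and Ptgs1 was lower on every PNP array. No probe of these genes passed the test across all probes for PNP.

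Values below are the log2 processed signal minus the array's 75th percentile, so that 0 is that percentile's own level on each array. Different probes bind with different strength, and a level is compared only with the same probe on other arrays. The array position is read from the last number of the scan name and renumbered here. The arrays with the lower number are called position 1 and those with the higher number position 2. Position 2 holds PNP replicates 1 and 3 and untreated replicate 2. Position 1 holds PNP replicate 2 and untreated replicates 1 and 3. What else went with the position, such as the day of culture or labelling, is not given in the sources used here. The labels also do not say that replicates were separate cultures, so the p-values reflect the spread among these 6 samples alone, and that spread may be technical.

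The arrays detected 48.0% to 57.9% of probes well above background, and no probe was saturated. That share was 51.7% to 55.3% at position 2 and 48.0% to 57.9% at position 1, which overlap. Of 20 Sertoli cell markers, 15 were tested, while 4, among them the defining genes Amh and Fshr, stayed near background on every array. None of the 7 Leydig cell markers with a probe was above background anywhere. All 7 peritubular myoid cell markers were above background on all 6 arrays, and so were 3 of 11 germ cell markers. In total 28208 probes were tested, those that the scanner software marked well above background throughout the PNP arrays, the untreated arrays or both. Of the 13 member probes 12 were tested, and the 1 left out was that of Hpgd.

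The sequences upstream of Ptgs2 and Tbxas1 are shown because these genes moved together with array position. Each is the 250 bases before the start of the gene, from RefSeq on build GRCm38.p6, and both genes lie on the plus strand. Capitals mark matches on either strand to the short motifs named after them.
Ptgs2, chr1:150099781-150100030: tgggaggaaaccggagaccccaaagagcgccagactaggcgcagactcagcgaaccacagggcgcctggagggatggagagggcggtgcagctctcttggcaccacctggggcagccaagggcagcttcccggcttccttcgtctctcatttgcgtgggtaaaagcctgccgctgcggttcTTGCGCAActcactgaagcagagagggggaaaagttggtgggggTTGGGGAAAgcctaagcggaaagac
Tbxas1, chr6:38918736-38918985: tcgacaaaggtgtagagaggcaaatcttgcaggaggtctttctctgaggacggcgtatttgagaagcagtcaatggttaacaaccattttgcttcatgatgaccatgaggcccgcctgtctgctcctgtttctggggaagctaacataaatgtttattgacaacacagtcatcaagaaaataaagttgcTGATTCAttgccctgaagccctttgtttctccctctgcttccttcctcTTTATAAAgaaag

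The Ptgs2 window held 1 match to each of 2 patterns searched for C/EBP factors, transcription factors of inflammatory genes. The first pattern, TTNCNNNAA, matched 25 bases before the start of the gene and is present in 32.9% of the 32851 upstream windows of that length. It is loose and spaces TT and AA wider than the second, so its match is not read as a C/EBP site. The second pattern, TTGCNNAA, matched 69 bases before the start and is present in 9.56% of windows. It was added after the windows and the matches of the first had been seen, so its match in Ptgs2 is no finding. The Tbxas1 window held a match to a loose AP-1 pattern (TGANTCA, in 6.75% of windows) 61 bases before the start. That pattern allows any middle base, here T, and whether AP-1 binds this stretch was not tested. The window also held 2 overlapping TATA box matches on opposite strands (TATAAA, in 12.4%), 13 and 11 bases before the start. Neither window held the letters of the E-box (CACGTG, 6.02% of windows), the CRE half-site (CGTCA, 17.8%) or the Egr1 site (GCGTGGGCG, 0.536%). This holds for these 250 bases before the annotated start only. Sequence outside them was not searched, so sites elsewhere in either promoter would be missed. No motif was found in both windows. Windows were matched for 9 of the 10 genes, Ptgis being the other one.

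Pla2g4a encodes cytosolic phospholipase A2 alpha, the enzyme that frees arachidonic acid. Its values were 3.32, 3.86 and 3.51 on PNP arrays 1 to 3, against 3.14, 3.24 and 3.10 on untreated arrays 1 to 3. All PNP arrays were above all untreated arrays, the nearest pair being PNP replicate 1 and untreated replicate 2. The means were 3.57 ± 0.27 in PNP samples and 3.16 ± 0.07 in untreated samples (SD, n = 3 each), a log2 difference of 0.41 ± 0.21 (SE). The difference was 0.18 among arrays at position 2 and 0.74 among those at position 1, where PNP replicate 2 was the single PNP array.

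Ptgs1 encodes cyclooxygenase 1. It read 2.42, 2.27 and 2.43 on the PNP arrays, against 2.87, 2.79 and 2.54 on the untreated arrays. The PNP arrays lay close together and below all untreated arrays, with untreated replicate 3 the nearest. The log2 difference was -0.36 ± 0.20 (SE), and it was -0.36 within position 2 and -0.44 within position 1.

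Ptgs2 encodes cyclooxygenase 2. Its values were 0.14, 1.18 and 0.02 on the PNP arrays, against 0.70, -0.28 and 0.89 on the untreated arrays. The groups overlapped fully: the highest array was PNP replicate 2 and the lowest untreated replicate 2. The group means were 0.45 ± 0.64 in PNP samples and 0.44 ± 0.62 in untreated samples (SD, n = 3 each), with a difference of 0.01 ± 0.40 (SE).

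Ordered by position, the same 6 values of Ptgs2 separated. The 3 arrays at position 2 averaged -0.04 ± 0.21 and the 3 at position 1 averaged 0.92 ± 0.24 (SD). With group in the fit, position 2 minus position 1 was -1.08 ± 0.17 (SE) on the log2 scale. The same difference was -1.10 among PNP arrays and -1.07 among untreated arrays. With position as a block, the PNP difference of Ptgs2 became 0.37 ± 0.17 (SE), and it was 0.36 within position 2 and 0.38 within position 1.

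Prostaglandin E2 is made by 3 synthases. Ptges encodes the inducible microsomal enzyme and was read by 3 probes that disagreed. Its probe 1 read 2.52, 2.41 and 2.50 on the PNP arrays, against 1.78, 1.50 and 2.29 on the untreated arrays. The PNP arrays were nearly level and above every untreated array, and the untreated arrays were spread. The log2 difference was 0.62 ± 0.24 (SE), with 1.01 within position 2 and 0.38 within position 1.

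The other Ptges probes gave processed signals from 26.9 to 57.7, well above background on all 6 arrays but low. Probe 2 read -3.12, -3.66 and -2.74 on the PNP arrays, against -3.10, -2.83 and -3.42 on the untreated arrays. Probe 3 read -3.16, -3.84 and -3.30 on the PNP arrays, against -3.51, -2.75 and -3.24 on the untreated arrays. PNP and untreated arrays overlapped for both, and the PNP differences were -0.06 ± 0.28 for probe 2 and -0.27 ± 0.28 for probe 3 (SE). The direction of Ptges with PNP therefore differed between its probes, all of which carry the same transcript accession.

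Ptges2 encodes a membrane-associated prostaglandin E synthase. It read 1.93, 1.91 and 2.33 on the PNP arrays, against 2.58, 2.65 and 2.27 on the untreated arrays. PNP replicates 1 and 2 were below all untreated arrays, but PNP replicate 3 was above untreated replicate 3. The difference was -0.45 ± 0.22 (SE), with -0.53 within position 2 and -0.52 within position 1. Ptges3, the cytosolic synthase also known as the Hsp90 co-chaperone p23, read 5.38, 5.53 and 5.39 on the PNP arrays, against 5.66, 5.55 and 5.32 on the untreated arrays, which overlap. Its difference was -0.07 ± 0.19 (SE).

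Ptgis encodes prostacyclin synthase and was read by 2 probes. Probe 1 read 2.61, 3.59 and 3.60 on the PNP arrays, against 3.15, 2.70 and 3.48 on the untreated arrays. Probe 2 read 2.49, 2.99 and 3.01 on the PNP arrays, against 3.28, 2.84 and 3.07 on the untreated arrays. PNP replicate 1 was the lowest array for both probes, and the groups overlapped. The differences were 0.15 ± 0.33 for probe 1 and -0.24 ± 0.23 for probe 2 (SE), of opposite sign.

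Tbxas1 encodes thromboxane A synthase, which is best known from platelets and macrophages. Its processed signals were 80.1, 316 and 85.3 on the PNP arrays, against 258, 61.0 and 306 on the untreated arrays. On the log2 scale these are -2.44, -0.53 and -2.17 on the PNP arrays, against -0.25, -2.16 and -0.59 on the untreated arrays. PNP replicate 2 and untreated replicates 1 and 3 were high, and the other arrays were low. The PNP difference was -0.72 ± 0.60 (SE), with an error nearly as large as itself.

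By position, Tbxas1 averaged -2.26 ± 0.16 at position 2 and -0.46 ± 0.18 at position 1 (SD, n = 3 each). Position 2 minus position 1 was -1.76 ± 0.19 (SE), a level 3.39 times higher at position 1. The difference was -1.78 among PNP arrays and -1.74 among untreated arrays. With position as a block the PNP difference of Tbxas1 shrank to -0.13 ± 0.19 (SE), and it was -0.15 within position 2 and -0.11 within position 1.

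Ptgr1 encodes prostaglandin reductase 1, which inactivates prostaglandins and leukotriene B4. It read 2.41, 2.12 and 2.28 on the PNP arrays, against 2.16, 2.16 and 2.20 on the untreated arrays. The untreated arrays were almost identical and lay within the range of the PNP arrays, and the difference was 0.10 ± 0.19 (SE). Hpgd, the dehydrogenase that inactivates prostaglandins by oxidising their 15-hydroxyl group, gave signals of 5.19, 3.73 and 3.34 on the PNP arrays, against 2.66, 3.88 and 6.62 on the untreated arrays. No array had it well above background, so no difference is given.

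**Figure D1:**
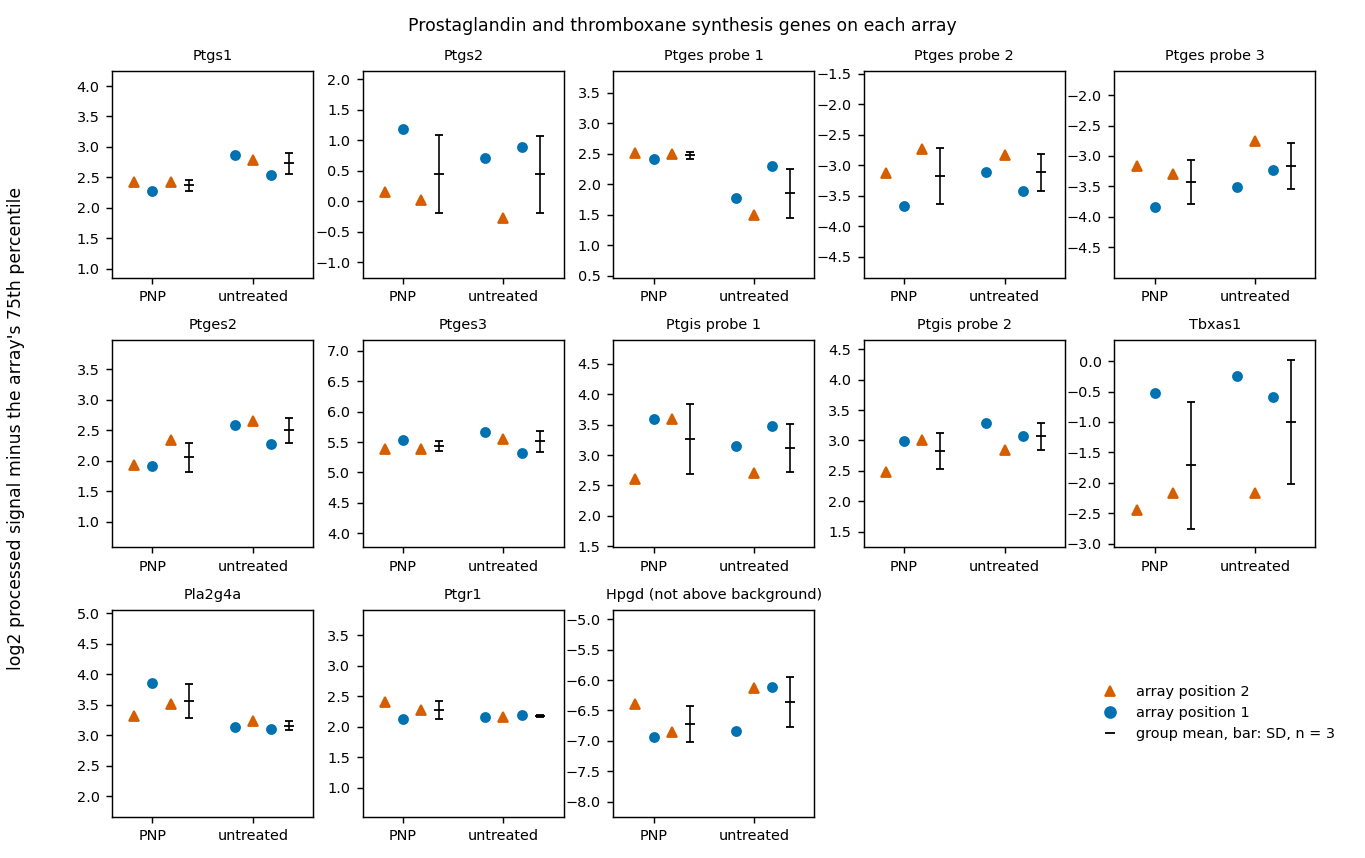
Log2 processed signal minus the array's 75th percentile (vertical axes, each spanning the same number of log2 units) for each member probe on each PNP and untreated array, with triangles for array position 2, circles for position 1, and bars for the group mean and SD (n = 3). Triangles lie below circles in both groups for Ptgs2 and Tbxas1, while for Pla2g4a, Ptgs1 and Ptges probe 1 the groups themselves are apart.

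With PNP, 0 of the 12 member probes passed an adjusted p under 0.05 in limma, where 0% of all 28208 tested probes did. At an unadjusted p under 0.05 there were 1 member probe and 2645 probes in all. The groups did not overlap for 3 of the 12 member probes, 2 higher with PNP and 1 lower, against 15.3% of all tested probes. The median log2 difference was -0.07 over the member probes and -0.06 over all tested probes. In bulk RNA, fewer cells making a transcript and less of it per cell cannot be told apart.

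**Figure D2:**
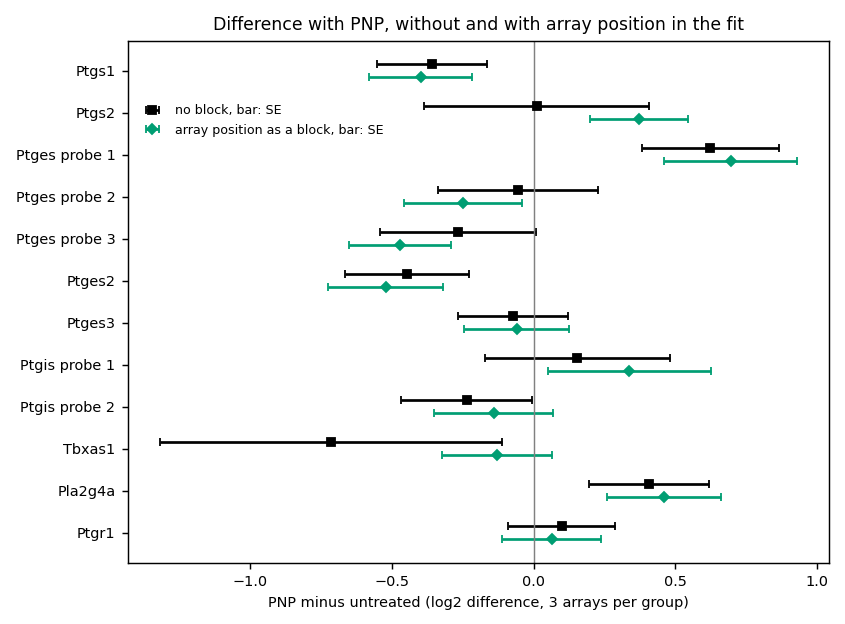
PNP minus untreated log2 difference (horizontal axis) of the 12 tested member probes, with SE as bars, from the fit without a block (squares) and with array position as a block (diamonds). The block moves Ptgs2 to 0.37 and Tbxas1 to -0.13, and narrows the bars of both.

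For array position, 2 of the 12 member probes, Ptgs2 and Tbxas1, passed an adjusted p under 0.05 in limma, both lower at position 2, against 3.47% of all tested probes (438 higher and 541 lower at position 2). Positions did not overlap for the same 2 probes, against 22.9% of all tested probes. Both genes were picked for this pattern, so their count is no support for it. It also rests on the number of arrays: both kept their call without PNP replicate 1, and neither did when any other single array was left out. The median position difference was -0.10 over the member probes and 0.06 over all tested probes. The lowest 1% of all tested probes lay below -1.28, where Tbxas1 was and Ptgs2 was not. The other 10 member probes had position differences between -0.55 and 0.62, the lowest being Ptgis probe 1 and the highest Ptges probe 3.

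**Figure D3:**
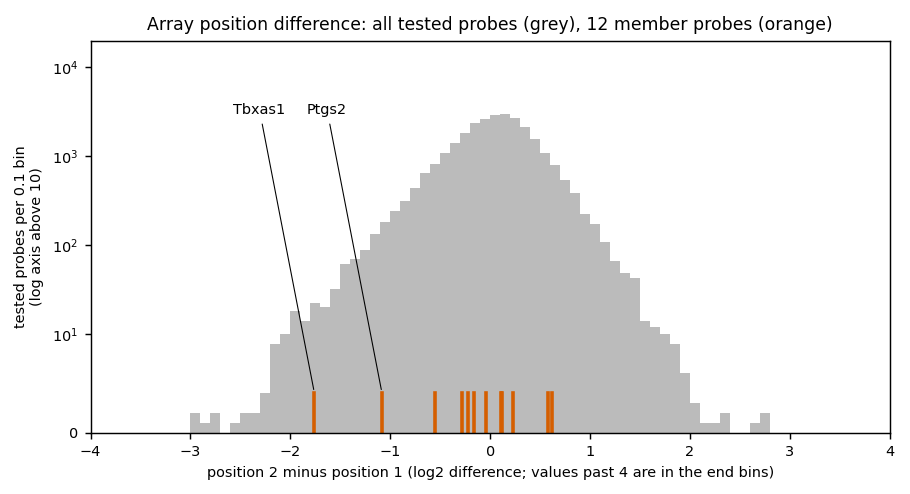
Number of tested probes (vertical axis, logarithmic above 10) by position 2 minus position 1 log2 difference (horizontal axis), in grey for all 28208 tested probes, with orange ticks for the 12 member probes. Tbxas1 at -1.76 and Ptgs2 at -1.08 lie to the left, and the other ticks between -0.55 and 0.62.

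The PNP effect was also fitted with a term for its dependence on position. No tested probe passed an adjusted p under 0.05 for that term in limma. The estimates were -0.03 ± 0.45 for Ptgs2 and -0.04 ± 0.47 for Tbxas1 (SE), errors many times the estimates. Slide was a further batch. Only slide 2 held both groups, PNP replicate 1 at position 2 and untreated replicate 3 at position 1, so a fit with slide as a block rests on those 2 arrays and mixes PNP with position. In it the PNP difference was -1.85 for Tbxas1 and -0.75 for Ptgs2.

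Genes around the pathway were described from lists, none of which had a probe past an adjusted p under 0.05 for PNP. Among 38 probes of 22 tested genes that release or supply arachidonate, the groups were apart for 3 higher and 3 lower with PNP, with a median difference of -0.03. The background for such counts is the 15.3% of all tested probes given above. Plaat3, a phospholipase of that list, was 0.87 ± 0.22 (SE) higher in PNP samples, with a limma adjusted p of 0.334, and by 0.84 within position 2 and 0.85 within position 1. Its second, dimmer probe, above background on 4 of the 6 arrays, gave 2.37 ± 0.47 (SE, limma adjusted p = 0.276). The size thus differed widely between the 2 probes. The second probe passed the filter only through the PNP arrays, where it was high, so its difference is no support for the first. At their brightest probes the secreted phospholipase Pla2g5 had -0.33 ± 0.21 and the acyltransferase Lpcat3 -0.32 ± 0.20 (SE), both lower on every PNP array. Their limma adjusted p were 0.637 and 0.626.

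Among 24 probes of other prostanoid synthases and catabolic enzymes none was higher and 3 were lower without overlap, with a median of -0.13. Of these, Cyp4f16, a cytochrome P450, had -0.46 ± 0.20 (SE; limma adjusted p = 0.533). In the lipoxygenase list, which makes leukotrienes from the same arachidonic acid, no probe of 9 separated the groups, and the median was -0.04.

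Prostanoid receptors decide which cells respond to the products. Ptgdr, Ptger2, Ptger3, Ptgfr and Ptgir were well above background on 0 of the 6 arrays. Ptger1 was above background on 2 arrays. Ptger4, the receptor for prostaglandin E2 that raises cAMP, was above background on all 6 arrays with both of its probes, and so was the thromboxane receptor Tbxa2r. Ptgdr2, a receptor for prostaglandin D2, was above background on 6 arrays with probe 1 and on 5 with probe 2. Its PNP differences were -0.45 ± 0.27 and 0.16 ± 0.51 (SE), with overlap. The Tbxa2r difference with PNP was -0.29 ± 0.27 (SE; limma adjusted p = 0.739). Ptgfrn, a protein that binds next to the prostaglandin F receptor, was 1.17 ± 0.35 (SE) higher in PNP samples without overlap, at a limma adjusted p of 0.377. Of the 12 receptor and transporter probes 1 was higher and 3 were lower with PNP without overlap. The lower ones named are Slco2a1, the prostaglandin transporter, at -0.45 ± 0.21 (SE; limma adjusted p = 0.555), and Ppard, a nuclear receptor, at -0.37 ± 0.20 (SE; limma adjusted p = 0.596). The list's median was -0.37, against -0.06 over all tested probes, and -0.23 with position as a block, against -0.08. Its median position difference was -0.39, against 0.06 over all tested probes.

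Of the 58 probes for regulators of Ptgs2, 3 were higher and 5 lower with PNP without overlap, and the median was -0.13. At the brightest probe of each gene, the glucocorticoid receptor Nr3c1 had 0.40 ± 0.21 and the transcription factor Tcf7l2 0.32 ± 0.19, while the NF-kappa B subunit Nfkb1 had -0.39 ± 0.20 and the RNA-binding protein Cirbp -0.28 ± 0.19 (SE). Their limma adjusted p lay between 0.565 and 0.661. The other probes of Tcf7l2 gave -0.19 to 0.56 with overlap. Among 25 response probes 1 was higher without overlap, and the median was -0.05.

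Among cell markers, the Sertoli factor Sox9 was lower in every PNP sample at its brightest probe, at -0.81 ± 0.23 (SE; limma adjusted p = 0.347), and -0.04 ± 0.26 (SE) at its other probe. By the same rule Rhox5 had -0.44, Gdnf -0.22, the smooth muscle gene Smtn -0.34, Csf1r -0.63 and Cd14 -0.45, with limma adjusted p between 0.531 and 0.712. The second probes of Csf1r and Cd14 had the opposite sign, at 0.28 and 0.25. Of 22 Sertoli probes 1 was higher and 4 were lower without overlap, with a median of -0.03. The higher one was Kitl probe 2, at 1.02 ± 0.36 (SE, limma adjusted p = 0.442), with 0.28 and 0.09 at its other probes. Of 11 peritubular myoid cell probes 0 were higher and 2 lower (median -0.08). Of 7 macrophage and mast cell probes 0 were higher and 2 lower (median 0.12). The background is 15.3% of all tested probes. The part of these markers in the members' PNP differences was not tested.

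Several genes that act before or after Ptgs2 also differed with array position, in both directions, and those named were picked after their values were seen. Ptger4 probe 2 read -3.92, -2.63 and -3.66 on the PNP arrays, against -2.30, -3.42 and -2.47 on the untreated arrays. As with Ptgs2, the arrays at position 2 were the low ones in both groups. Its position difference was -1.10 ± 0.18 (SE; limma adjusted p = 0.0286), and that of Ptger4 probe 1 was -0.95 ± 0.23 (SE; limma adjusted p = 0.0714), which missed the threshold. The transporter Abcc4, which exports prostaglandin E2, differed by -0.80 ± 0.17 (SE; limma adjusted p = 0.0498).

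Egr1, an immediate early transcription factor that can drive Ptgs2, had the largest position difference among the regulators named, -2.16 ± 0.20 (SE; limma adjusted p = 0.0138). It read 1.21, 3.39 and 0.86 on the PNP arrays, against 3.11, 1.15 and 3.11 on the untreated arrays, again low at position 2 in both groups. Of 58 probes for regulators of Ptgs2, 1 was higher and 2 were lower at position 2 by the same test. Of 25 probes for genes that respond to prostaglandin E2 and cAMP, 1 was higher and 5 were lower. Among the lower was Has2, a hyaluronan synthase, at -1.87 ± 0.29 (SE, limma adjusted p = 0.0262). Both probes of Hmga2 were also lower. Fosl2 was called in both directions, at 1.02 ± 0.21 for probe 2 and -1.21 ± 0.18 for probe 1 (SE). Of 12 receptor and transporter probes 0 were higher and 2 lower. The few calls of the supply and synthase lists had the other sign, at shares near that of all tested probes. Of 38 probes for arachidonate release and supply 2 were higher and 0 lower. These were Fads1 probe 2 at 1.05 ± 0.19 and Pla2g6 probe 2 at 0.88 ± 0.17 (SE). Of 24 probes for other synthases and catabolic enzymes 1 was higher and 0 lower, Gstm1 probe 2 at 0.88 ± 0.18 (SE). The background for these counts is the 3.47% given for Ptgs2 and Tbxas1. The median position difference was 0.04 in the supply list and 0.22 in the synthase list, against 0.06 over all tested probes.

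**Figure D4:**
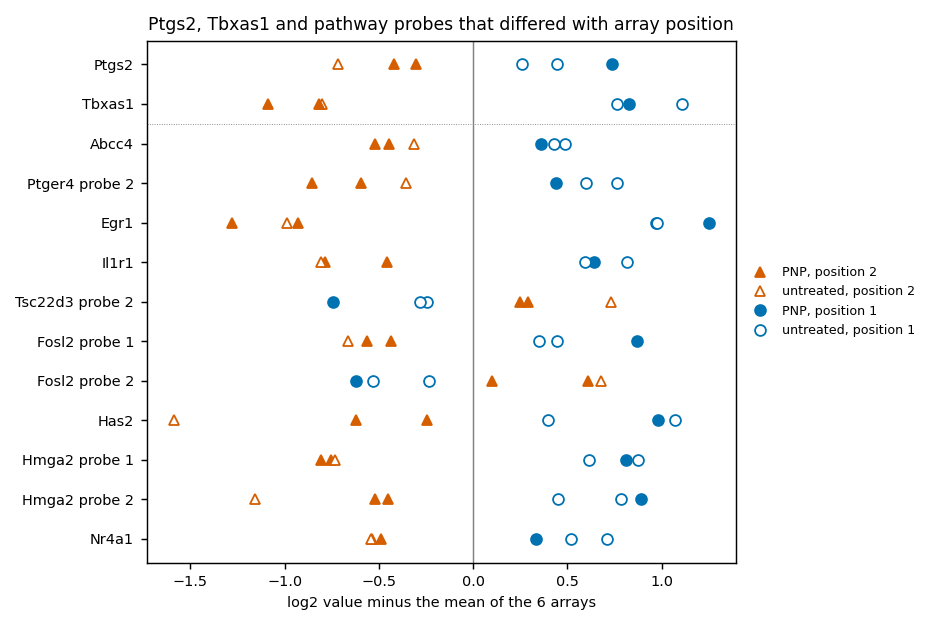
Log2 value minus the mean of the 6 arrays (horizontal axis) for Ptgs2, Tbxas1 and the pathway probes that passed the position test among receptors, regulators of Ptgs2 and response genes, with triangles for position 2, circles for position 1, filled symbols for PNP and open symbols for untreated. Triangles lie left of circles for all but Tsc22d3 probe 2 and Fosl2 probe 2, where they lie right.

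Because Tbxas1 is a macrophage and platelet gene, markers of macrophages and mast cells were set beside it. Of 11 such genes 4 were tested, and Adgre1, Ptprc, Tyrobp, Kit and Cpa3 were well above background on 0 of the 6 arrays. Fcer1a was so on 1 array and Lyz2 on 2, and neither was tested. Lyz2 read -6.39, -3.56 and -6.66 on the PNP arrays, against -5.20, -5.75 and -3.57 on the untreated arrays. Like Tbxas1 it was lower at position 2 without overlap, though most of its values were near background. Of the markers never above background, Tyrobp was higher and Kit lower at position 2 without overlap. The list's summed processed signal was 7717 to 11277 at position 2 and 6978 to 11146 at position 1, which overlap. Its mean log2 value was 1.16 to 1.40 at position 2 and 0.99 to 1.09 at position 1, higher at position 2 without overlap. That order rests on the 2 probes of Cd68, a lysosomal protein, with position differences of 1.16 and 1.44, both past the position test. Without them, in a comparison added after seeing the data, the mean of the other 5 probes was 0.94 to 1.09 at position 2 and 1.13 to 1.23 at position 1, which turns the order round. Of those 5 probes, the 2 of Cd14, a receptor for bacterial lipopolysaccharide, had position differences of -0.29 and -0.67, the sign of Tbxas1, and did not pass the test. The 2 probes of Csf1r had 0.10 and 0.17 and the probe of Itgam 0.14. Whether other cells had a part in the position difference was not tested beyond these values.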

How the data were processed

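Total RNA of 6 TM4 samples (3 PNP, 3 untreated) was hybridised to single-colour arrays of 62976 spots, 3671 of them controls. The deposited intensity values are Agilent Feature Extraction processed signals, already background-subtracted; the software is version 11.5.1.1 per the file headers, but 10.7 by the submitters' processing notes. The authors' deposited log2 table was used as an alternative only; its log2 scale and its quantile normalization are read from the values, since no source used here states them.

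Probes were named through their RefSeq accessions (33767 named, 22838 not). Each array's log2 processed signal was reduced by its 75th percentile. Probes well above background throughout either group, with a value on all 6 arrays, were fitted with limma 3.58.1 (lmFit and eBayes) in R 4.3.3, with Benjamini-Hochberg adjustment over all 28208 probes. The position contrast had group as a second term. The fit was tested on simulated data. For normexp the median spot signal was used, since the files hold no mean.

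The members and lists were chosen with earlier results of these data known. All members were named, and from each list any gene past the threshold or otherwise up to 4 with the largest difference at the brightest probe among genes whose groups did not overlap; those named for array position, and the second C/EBP pattern, were chosen after the values or sequences were seen. Alternatives changed background correction, normalization, filter, variance model, array weights, position, slide, replicate block, probe choice and single arrays. Whether equal replicate numbers pair the samples could not be told. Deviations of same-numbered arrays correlated at -0.42, -0.56 and -0.44 across probes, but the arrays of each such pair lay at opposite positions. The check therefore mixes pairing with array position. The number of arrays limits the precision.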

Additional observations from a re-analysis of the deposited data

How the results depend on the processing

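For PNP, no member probe was called under any of the 25 alternatives. Over all probes the count of 0 became 1503 with array weights (1070 higher, 433 lower), 22 when normexp was joined to a block for position, 638 within position 1 and 155 within position 2, where 1 sample of a group stands alone and is assumed to vary like the other arrays. The array weights were 9.38 for untreated replicate 1 and 0.48 to 0.84 for the other arrays. The untreated mean of that fit therefore rests largely on 1 array. Leaving out single arrays gave 0 to 17, with 17 without PNP replicate 1 and 1 without untreated replicate 2. Of the pathway list probes, 7 were called with array weights, 2 within position 1 and 1 within position 2, and 0 to 1 when single arrays were left out. The replicate block gave 0 calls, with 1562 probes at an unadjusted p under 0.05, and changed no other call. Pla2g4a, Ptgs1, Ptges2, Ptges probe 1, Ptgis probe 2 and Tbxas1 kept their sign under every alternative run, though Tbxas1 ranged from -1.85 to -0.11. The slide block took Ptgs2 to -0.75 and Ptgis probe 1 to -0.88. Median centring moved the median of all probes to -0.16. For array position, the 979 calls became 1581 with normexp, 1995 with a robust variance trend and, in an alternative added after seeing the data, 4760 with slide as a fixed block; leaving out single arrays gave 0 to 640. The 2 member calls became 1 without group in the fit, when Tbxas1 alone passed, 3 with slide as a fixed block, when Ptges probe 3 passed too, and 0 to 2 without single arrays. The position difference ranged from -1.84 to -1.09 for Tbxas1, smallest in size with normexp, and from -1.13 to -0.94 for Ptgs2. The cause of these shifts was not tested. For dim probes, Hpgd above all, signal over background limits what can be read.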
